A study of Mus musculus with 3 samples.

Results

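The 8 genes described here are Srgn, Car4, Spink1, Gja1, Thbd, Plat, Fst and Stra6, of 18193 genes with a named probe set on the arrays. None of them encodes a structural protein of the basement membrane. Srgn, Car4, Spink1 and Gja1 were chosen by their measured signals, as genes strongly lower on a mutant array than on the WT array, so their differences from WT are given as a description and support nothing. Thbd, Plat, Fst and Stra6 were chosen because they are known as markers of parietal endoderm. All 16 probe sets whose only annotated symbol is one of these genes were read: 6 for Gja1, 2 each for Car4, Plat and Fst, and 1 each for the others. The data are messenger RNA signals of embryoid bodies, which are clusters of embryonic stem cells that differentiate in suspension, collected on day 7. The stem cells were mouse cells of the strain 129S7/SvEv Brd-Hprt b-m2 and carried a human BRCA1 gene, which encodes a tumour suppressor acting in DNA repair. RQ bodies carried human BRCA1 with R1699Q as the series design gives it, written R1669Q in the label of that array. MI bodies carried human BRCA1 with M1652I, and WT bodies carried wild-type human BRCA1. Whether a genotype stands for 1 clone, and the state of the mouse Brca1 gene, are not given in the sources used here. Feeder cells had been let settle on gelatin before the bodies were formed. Each genotype was measured on 1 Affymetrix array, so there are no replicates, no test was run, and no difference has an error. How precise the values are is thus limited by how few arrays there are.

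Parietal endoderm is the extraembryonic cell layer that lays down the thick basement membrane around the rodent embryo, and visceral endoderm is its absorptive sister layer in the yolk sac. Both come from the primitive endoderm, which also forms on the surface of embryoid bodies. Parietal endoderm is best known for its laminins and type IV collagens. It is also known for thrombomodulin (Thbd), tissue plasminogen activator (Plat), follistatin (Fst) and the retinol-binding protein receptor STRA6.

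Signals are log2 values, and a difference is read only where the higher of the 2 arrays compared reached the level filter, the median of all probe sets (6.31). Of the 8 genes, 6 passed this filter in RQ against WT and 4 were at least 2-fold lower, beside 1.49% of the 12226 genes that passed. In MI against WT, 6 passed and 4 were at least 2-fold lower, beside 2.44% of 12786. None was at least 2-fold higher, beside 1.68% of genes in RQ and 0.516% in MI. The choice of Srgn, Car4, Spink1 and Gja1 fixes these counts, so nothing is read from them. The share of all genes in MI depends on scaling, with 1.54% lower and 0.852% higher after the arrays were quantile-normalized again, 1.76% and 0.618% after a lowess correction, and 3.05% and 0.43% after centring on medians. Thbd and Stra6 did not reach the filter on any array and could not have been counted. The smallest difference among the genes chosen as lower was that of Gja1 in MI (-2.04), and the next in size was that of Plat in RQ (-0.63).

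**Figure D1:**
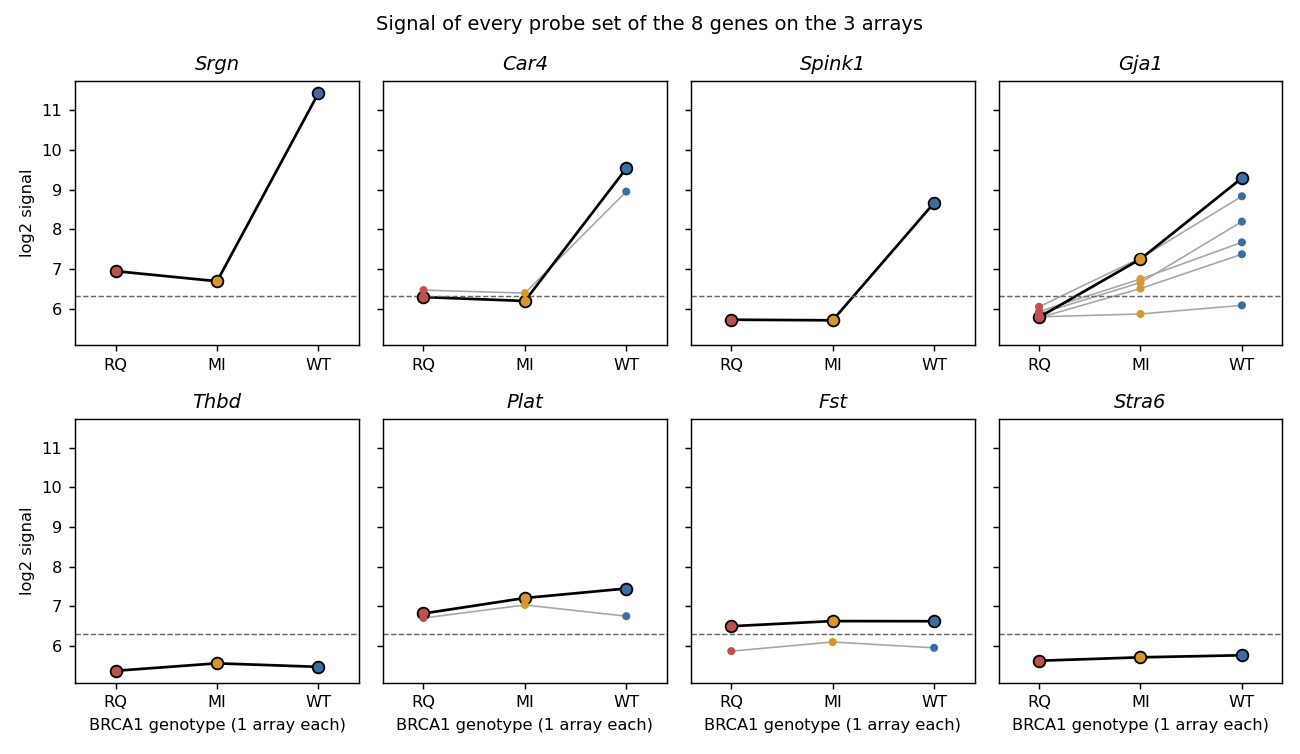
Log2 signal (vertical axis) of each probe set of the 8 genes on the RQ, MI and WT arrays. Lines join the values of 1 probe set and stand for no order of the arrays, black lines mark the probe set used for the gene, and the dashed line is the level filter at 6.31. Srgn, Car4 and Spink1 are low on both mutant arrays, Gja1 in MI lies between the other arrays, and the lower row is nearly flat.

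Srgn encodes serglycin, the core protein of an intracellular proteoglycan that loads secretory granules. It is best known from blood and mast cells, and its complementary DNA was isolated from a rat yolk sac tumour. Its probe set, 1417426_at, read 6.94 in RQ bodies and 6.69 in MI bodies, against 11.43 in WT bodies. Both mutant arrays were low and close to each other, still above the level filter. The log2 difference was -4.49 in RQ (22.5-fold lower) and -4.74 in MI (26.8-fold lower). Srgn was thus at rank 2 from the lowest of all genes in RQ and at rank 1 in MI. A single probe set reads this gene, so no other probe set bears on its value.

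Car4 encodes carbonic anhydrase 4, a membrane-anchored enzyme that converts carbon dioxide and bicarbonate outside the cell. The probe set used, 1448949_at, read 6.29 in RQ and 6.19 in MI, against 9.53 in WT. The other, 1418094_s_at, read 6.46 in RQ and 6.39 in MI, against 8.95 in WT. On both probe sets the mutant arrays lay at about the filter and the WT array lay well above it. The differences were -3.24 and -2.48 in RQ, and -3.34 and -2.56 in MI. On the probe set used this is 9.47-fold lower in RQ and 10.1-fold lower in MI, with ranks of 10 and 5 from the lowest, and these folds can understate the true ratio because the mutant values were below the filter.

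Spink1 encodes a small Kazal-type inhibitor of trypsin, known from the pancreas and the gut. Its probe set, 1415938_at, read 5.72 in RQ and 5.70 in MI, against 8.66 in WT. Spink1 was below the filter in both mutants, so its difference can understate the true ratio. The difference was -2.95 in RQ (7.70-fold lower) and -2.96 in MI (7.78-fold lower), at ranks 12 and 11. Spink1 and the used probe set of Car4 passed the filter through the WT array alone, and so did Gja1 in RQ. A gene that passes in this way, at a WT signal so far above the filter, had to be read as lower.

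Gja1 encodes connexin 43, a gap junction channel protein of many early embryonic, mesenchymal and muscle cells. The probe set used, 1437992_x_at, read 5.78 in RQ and 7.25 in MI, against 9.29 in WT. The next, 1415800_at, read 6.04 in RQ and 7.27 in MI, against 8.83 in WT. RQ was thus the lowest, and below the filter on both, MI was between, and WT was the highest. On the probe set used the difference was -3.51 in RQ (11.4-fold lower, rank 5) and -2.04 in MI (4.11-fold lower, rank 38). This order held on each of the 6 probe sets, though not with the same size. Against WT they ranged from -3.51 to -0.29 in RQ, with 5 of 6 at least 2-fold lower, and from -2.04 to -0.22 in MI, with 3 of 6. The smallest differences came from 1415801_at, which read 5.79 in RQ, 5.86 in MI and 6.08 in WT and never reached the filter. These probe sets read the same RNA of the same 3 arrays and are not replicates.

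The sequences just before the annotated transcription starts of Srgn, Car4 and Gja1 are shown because these 3 genes were low together in both mutants. They are the 250 bases upstream of each start, 5′ to 3′ on the strand of the gene, from RefSeq on build GRCm38.p6. No window was read for Spink1, Thbd, Plat or Fst. Srgn has 2 annotated starts, with windows at chr10:62527446-62527695 and chr10:62507758-62508007 on the minus strand. The window of Car4 is at chr11:84957504-84957753 and that of Gja1 at chr10:56377050-56377299, both on the plus strand. Capitals mark the matches, on either strand, to the 4 motifs searched, which did not overlap each other: AGATAA, bound by GATA factors of the endoderm, ATTGTT, bound by SOX factors, TGANTCA, bound by AP-1, and the TATA box letters TATAAA.
Srgn, start 1: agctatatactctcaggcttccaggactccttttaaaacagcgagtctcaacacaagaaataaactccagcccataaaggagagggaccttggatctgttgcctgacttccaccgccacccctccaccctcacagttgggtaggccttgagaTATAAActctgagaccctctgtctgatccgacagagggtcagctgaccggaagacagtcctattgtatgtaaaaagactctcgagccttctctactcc
Srgn, start 2: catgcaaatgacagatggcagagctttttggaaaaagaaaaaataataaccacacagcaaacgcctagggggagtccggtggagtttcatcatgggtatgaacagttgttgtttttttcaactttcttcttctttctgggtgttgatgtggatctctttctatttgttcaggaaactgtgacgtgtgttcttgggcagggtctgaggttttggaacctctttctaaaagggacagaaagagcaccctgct
Car4: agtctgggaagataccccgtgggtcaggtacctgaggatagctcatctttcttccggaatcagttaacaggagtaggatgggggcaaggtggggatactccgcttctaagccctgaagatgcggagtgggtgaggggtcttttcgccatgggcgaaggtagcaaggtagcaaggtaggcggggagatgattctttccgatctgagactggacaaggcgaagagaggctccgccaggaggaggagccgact
Gja1: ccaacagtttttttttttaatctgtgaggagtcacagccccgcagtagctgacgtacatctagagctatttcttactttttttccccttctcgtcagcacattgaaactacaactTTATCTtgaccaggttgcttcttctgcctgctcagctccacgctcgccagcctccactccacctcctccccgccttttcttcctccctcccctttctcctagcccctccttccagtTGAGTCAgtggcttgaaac

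The Gja1 window held AGATAA on the opposite strand, beginning 135 bases before the start, and TGANTCA beginning 19 bases before the start. The first Srgn window held TATAAA beginning 98 bases before the start. The other Srgn window and that of Car4 held none of the 4 motifs. Among all 32851 windows of the same length in the table, 9.99% held AGATAA, 9.42% ATTGTT, 6.75% TGANTCA and 12.4% TATAAA. The 3 genes thus shared no match. A match is a description of letters, and the absence of one says nothing about a factor. Stra6, which has 4 annotated starts, had 1 match to AGATAA, in 1 of its windows.

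Among the parietal endoderm markers, Plat, which encodes the protease that activates plasminogen and is secreted by parietal endoderm, was above the filter on each array. Its used probe set, 1415806_at, read 6.82 in RQ and 7.21 in MI, against 7.45 in WT. The other, 1458553_at, read 6.71 in RQ and 7.04 in MI, against 6.76 in WT. RQ was the lowest array on both, but MI was below WT on 1 and above it on the other. The difference was -0.63 in RQ (1.55-fold lower) and -0.24 in MI on the used probe set, and -0.05 and 0.28 on the other.

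Fst, the secreted protein that binds and blocks activin, read 6.50 in RQ and 6.63 in MI, against 6.63 in WT, on 1434458_at. Its values were close to the filter and close to each other, with differences of -0.13 in RQ and 0.00 in MI. The other probe set, 1421365_at, was below the filter on all 3 arrays (5.87, 6.10 and 5.96 in RQ, MI and WT). Thbd, the cell surface receptor that turns thrombin from clotting to activating protein C, read 5.38 in RQ and 5.57 in MI, against 5.48 in WT. Stra6, through which cells take up retinol from its carrier, read 5.63 in RQ and 5.72 in MI, against 5.77 in WT. Both were below the filter on each array, WT included, so no loss could have been read. The name under which these 8 genes were grouped, as genes lost with endoderm, could therefore not be checked on Thbd and Stra6. Fst in WT was so close to the filter that a 2-fold loss could hardly have been read either. Plat showed a difference short of 2-fold, in RQ and on 1 of its probe sets.

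The mutants were also compared with each other. Of the 4 genes that passed the filter for RQ against MI, 1 was at least 2-fold lower in RQ, beside 0.508% of 12800 genes, and none was at least 2-fold higher, beside 1.98%. Over all genes these shares depend on scaling, with 0.843% lower and 0.922% higher after quantile normalization again, 0.617% and 1.14% after the lowess correction, and 0.405% and 2.77% after centring on medians. The gene was Gja1, at -1.47 (2.76-fold lower in RQ), at rank 25 from the lowest. On the probe set used, Gja1 was below the filter in RQ and passed through the MI array alone, so it could only be read as lower. It was also chosen for low mutant signal, so nothing is read from this count or rank. All 6 Gja1 probe sets were lower in RQ than in MI, by -1.47 to -0.07, and 2 of them were at least 2-fold lower. With the mean of the 6 the difference was -0.85, short of 2-fold. The differences of the other 3 lower genes were 0.25 for Srgn, 0.10 for Car4 and 0.01 for Spink1, of which the last 2 lay below the filter in both mutants. Plat differed by -0.39 and Fst by -0.13.

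The genes most like each lower member were found from the pair of differences, RQ minus WT and MI minus WT, by the straight-line distance between pairs among 12970 genes. Both differences use the same WT array, so a high WT reading enters both. Nearest to Srgn was Cubn, the endocytic receptor cubilin, at a distance of 0.17, then Lama1, a laminin chain, at 1.06 and the matrix protein gene Sparc at 1.66. Nearest to Car4 were the keratin Krt18 (0.12), the type IV collagen chain Col4a2 (0.22) and Spink1 (0.48). Nearest to Spink1 were Lgmn, which encodes a lysosomal protease (0.03), Col4a1 (0.21) and Ifi30, which encodes a lysosomal thiol reductase (0.29). The search itself fixes the likeness of these genes to the member.

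Gja1 had no neighbour as close as the nearest gene of Srgn, of Car4 or of Spink1. Its own nearest gene was the Y-linked Eif2s3y (0.32), which read 5.30 in RQ and 6.31 in MI, against 8.56 in WT. The other probe set of Eif2s3y did not reach the filter. Next to Gja1 came the keratin Krt8 (0.74) and Serpinh1, a collagen chaperone (0.79), both closer than the later neighbours of Srgn. Serpinh1 read 8.01 in RQ and 8.74 in MI, against 10.73 in WT. The 3 probe sets of Sparc were not alike, with differences from -4.01 to -0.25 in RQ.

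**Figure D2:**
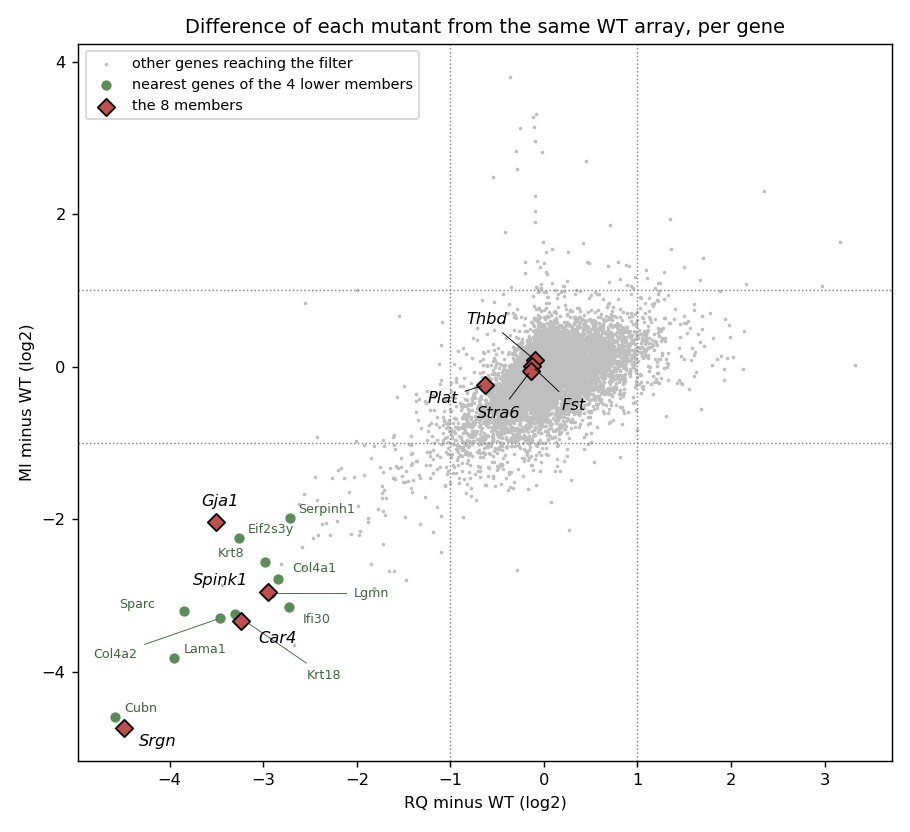
Difference of RQ from WT (horizontal axis, log2) against that of MI from the same WT array (vertical axis, log2) for each gene reaching the level filter, and for the 8 members (diamonds). Green points are the 3 genes nearest to each of Srgn, Car4, Spink1 and Gja1, and dotted lines mark 2-fold. Gja1 lies above Srgn, Car4 and Spink1, at -3.51 and -2.04, and Thbd, Plat, Fst and Stra6 lie inside the dotted lines.

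The other genes of each member's family or pathway are given from lists. Srgn, Car4, Spink1 and Gja1 were chosen for their large differences, so their place below their families says nothing about the families. The median difference of all genes that passed was 0.01 in RQ and 0.06 in MI. Of these genes, 1.49% were at least 2-fold lower and 1.68% higher in RQ, and 2.44% and 0.516% in MI. The list of proteoglycan cores besides Srgn has 13 genes, the hyaluronan receptor gene Cd44 included, of which 11 passed in RQ. The 2 at least 2-fold lower in RQ were Gpc3, a glypican, at -1.22, and Sdc4, a syndecan, at -1.08, both named after their values were seen. The list's median was -0.10 in RQ, and 0.12 in MI with 1 of 12 lower and 3 higher. The 1 lower in MI was Gpc3, at -1.47, where Sdc4 was at -0.87. The 3 higher in MI were Cd44 (3.27), decorin (Dcn, 2.96) and biglycan (Bgn, 2.48), which differed by -0.12, -0.10 and -0.54 in RQ. Their probe sets were not alike in MI, with ranges of -0.06 to 3.27 for Cd44, 0.09 to 2.96 for Dcn and 0.59 to 2.48 for Bgn. None of the 11 enzymes of glycosaminoglycan synthesis that passed was 2-fold different in either mutant, and the medians were 0.01 in RQ and -0.00 in MI. Chsy1, a chondroitin synthase, differed by 0.86 in RQ and 0.35 in MI, the sulfotransferase Chst11 by 0.62 and 0.52, and Csgalnact2 by 0.47 and 0.32.

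None of the other carbonic anhydrases was 2-fold different, among 11 that passed in RQ (median -0.08) and 12 in MI (median 0.14). Car2, the cytosolic enzyme, came closest, at 7.88 in RQ and 7.77 in MI, against 8.47 in WT. Car7 differed by 0.13 and 0.48, and Car5b by 0.05 and 0.42. Of the other Kazal and Kunitz inhibitors and the trypsin-like proteases listed with them, none of the 6 that passed was 2-fold different. St14, the membrane protease matriptase, read 7.63 in RQ and 7.51 in MI, against 8.37 in WT. Its inhibitors Spint2 and Spint1 differed by -0.43 and 0.13 in RQ and by -0.71 and -0.45 in MI, although on the other probe set of Spint2 the values were -0.82 and -1.12.

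Of the other connexins, 4 of the 11 on the arrays passed. Gjc1, another connexin gene, went the opposite way from Gja1, at 8.73 in RQ and 8.50 in MI, against 7.60 in WT. Its differences were 1.12 in RQ and 0.90 in MI on the probe set used, and 0.73 and 0.69 on the other. Gjb2 differed by -0.01 and 0.27 and Gjb5 by 0.05 and 0.24. The list's median was 0.02 in RQ and 0.26 in MI.

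**Figure D3:**
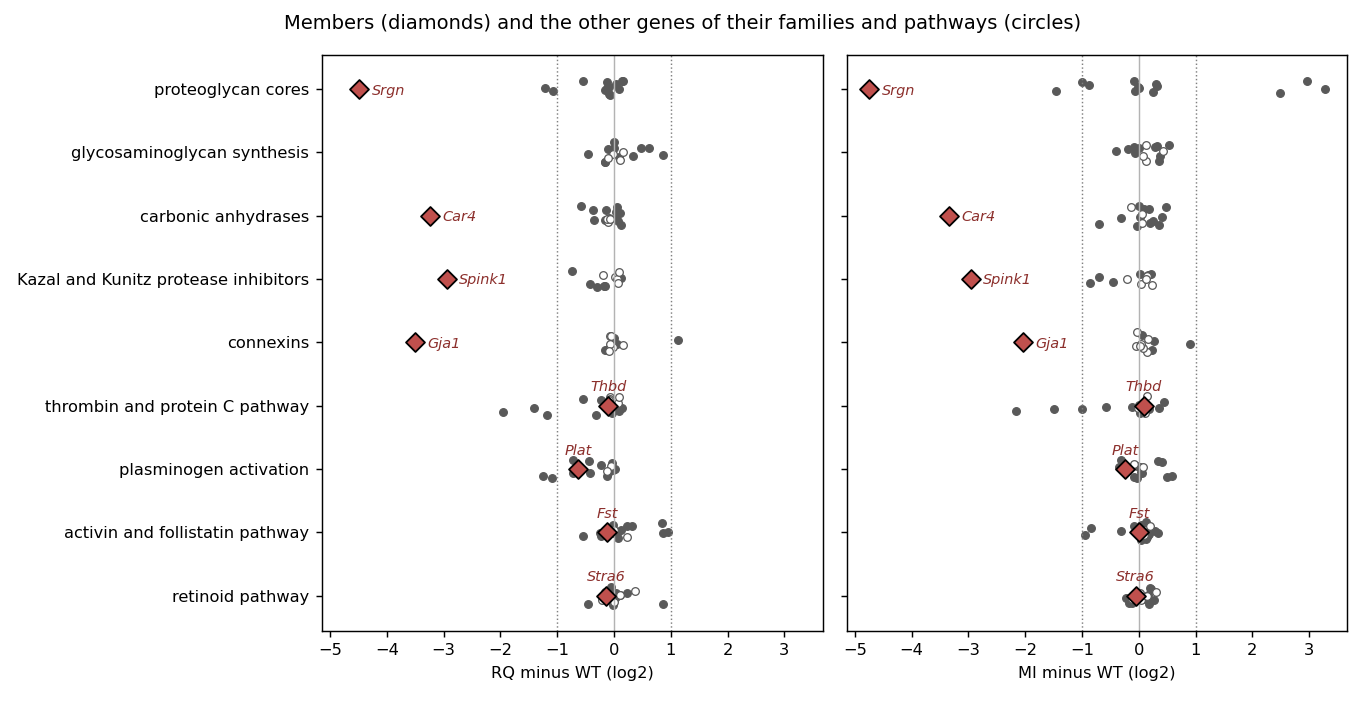
Differences from WT (horizontal axes, log2) of RQ on the left and MI on the right, for the members (diamonds) and the other genes of 9 family and pathway lists (circles). Filled circles reach the level filter on an array, open ones do not, and dotted lines mark 2-fold. Srgn, Car4, Spink1 and Gja1, chosen for low mutant signal, lie far left, and Gpc3, Tfpi, F2r and F3 lie left of the dotted line in both panels.

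Around Thbd, which itself could not be read, 3 genes of the clotting pathway were lower. Of the 9 that passed, 3 lay at least 2-fold below WT in RQ, beside 1.49% of all genes. The same number did in MI, beside 2.44%. Tfpi, the inhibitor of the first step of clotting, read 8.71 in RQ and 8.52 in MI, against 10.68 in WT. The thrombin receptor F2r read 8.63 in RQ and 8.54 in MI, against 10.03 in WT. Tissue factor, F3, which starts clotting, read 5.77 in RQ and 5.95 in MI, against 6.95 in WT, so that it passed through WT alone and could only be read as lower. In each case both mutant arrays were below the WT array by a similar amount, with differences of -1.96 and -2.16 for Tfpi, -1.40 and -1.49 for F2r, and -1.18 and -1.01 for F3. The 4 probe sets of Tfpi ranged from -1.97 to -0.66 in RQ and from -2.16 to -0.93 in MI. The medians of the list were -0.32 and -0.13.

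Around Plat, 2 of 12 plasminogen activation genes lay at least 2-fold below WT in RQ (1.49% of all genes), and none did in MI (2.44%). They were Anxa2 (-1.25 in RQ, -0.32 in MI) and S100a10 (-1.09 and 0.59), which together form a surface complex that binds plasminogen and its activator. The 3 probe sets of Anxa2 ranged from -1.25 to -0.17 in RQ. Timp2, an inhibitor of matrix metalloproteases, differed by -0.72 and 0.50 on the probe set used, and its 6 probe sets ranged from -0.72 to 0.06 in RQ and from 0.07 to 1.24 in MI. The urokinase gene Plau, named after its values were seen, differed by -0.13 and 0.04. The list's medians were -0.33 and 0.03.

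Around Fst, none of the activin pathway genes was 2-fold different, among 14 that passed in RQ (median 0.06) and 12 in MI (median 0.08). The activin receptor Acvr1b differed by 0.94 in RQ and 0.13 in MI, the activin subunit Inhbb by 0.86 and 0.17, and the follistatin-like Fstl1 by -0.55 and -0.94. Around Stra6, none of the retinoid genes was 2-fold different, among 11 that passed in RQ (median -0.02) and 12 in MI (median 0.14). The retinoic acid receptor Rarg differed by 0.86 and 0.28 on the probe set used and by 1.10 and 0.17 on the other. Rbp4, the carrier of retinol that STRA6 binds, differed by -0.45 and -0.17, and Crabp1 by 0.24 and 0.20.

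Markers of cell types were read beside these results. In bulk samples, fewer cells of a type and less RNA per cell cannot be told apart. Among all genes that passed, 1.49% were at least 2-fold lower and 1.68% higher in RQ, and 2.44% and 0.516% in MI. Of 15 parietal endoderm markers other than the 8 members, 13 passed and 7 were at least 2-fold lower in each mutant. The 7 were laminins, type IV collagens and other matrix genes. Not every matrix gene of the list was 2-fold lower. Nid1, well above the filter on each array, differed by -0.94 in RQ and -0.20 in MI. Pdgfra differed by -0.03 in RQ and 0.38 in MI, and Pth1r by -0.63 in both. In each mutant, 2 of the 13 passed through the WT array alone. Their signals, summed after undoing the log, came to 2473 in RQ and 2902 in MI, against 14274 in WT. Of the transcription factors on the same list, Gata6 read 6.94 in RQ and 7.08 in MI, against 7.04 in WT, and Sox17 6.79 and 7.06, against 7.05. Snai1 differed by -0.41 in RQ and -0.10 in MI. Gata6, Sox17 and Snai1 in WT lay within 2-fold of the filter, so a 2-fold loss of them would have fallen below it. Gata4 and Sox7 reached the filter on no array and could not be read. Of 11 visceral endoderm markers, 9 passed. At least 2-fold lower were 5 of them in RQ and 4 in MI. Not 2-fold different in either mutant were Afp (-0.14 in RQ, 0.24 in MI) and Ttr (-0.14 and 0.08). Nor were Apob (0.07 and 0.27) and Hnf4a (0.04 and 0.10). In WT, Afp, Ttr, Apob and Hnf4a lay within 2-fold of the filter, so a 2-fold loss of them would have fallen below it. The list's sum was 1059 in RQ and 2107 in MI, against 4264 in WT. The MI sum rests largely on Rhox5 (10.20), whose difference in RQ against MI was -2.20. The other markers of the list differed in RQ against MI by -0.57 to 0.02. Cubn, Lrp2 and Amn in both mutants, and Dab2 in RQ, passed through the WT array alone and could only be read as lower. The list's median was -1.54 in RQ and 0.08 in MI, where Rhox5 (0.66), Afp, Ttr, Apob and Hnf4a were above WT. The median of the parietal endoderm list was -1.52 and -1.32. The part of these markers in the values of Srgn, Car4, Spink1 and Gja1 was not tested.

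Srgn is known from blood and mast cells, and Thbd and Plat from endothelium. Of 8 blood and mast cell markers, 3 passed in RQ and 4 in MI. None of these was 2-fold lower, beside 1.49% of all genes in RQ and 2.44% in MI. The highest in WT, Gata1 at 6.99, lay within 2-fold of the filter. A 2-fold loss would thus have fallen below the filter, so nothing is read from this. In MI 1 was 2-fold higher, beside 0.516% of all genes. It was Cd34 (1.10), which passed through the MI array alone. The sum of the 8 was 541 in RQ and 646 in MI, against 549 in WT. The sum of 7 endothelial markers was 519.7 in RQ and 534 in MI, against 503 in WT. On each array at most 4 of the 8 blood and mast cell markers and at most 3 of the 7 endothelial markers reached the filter, WT included.

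Gja1 is also known from fibroblasts. Of the 6 fibroblast markers that passed for RQ against MI, 2 were at least 2-fold lower in RQ, beside 0.508% of all genes. These were Dcn (-3.06) and Col1a2 (-1.64), and no fibroblast marker was higher, beside 1.98%. Of 8, 6 passed in MI against WT and 2 were at least 2-fold higher, beside 0.516% of all genes. They were Dcn (2.96), which is also on the proteoglycan list, and Col1a2 (1.64). None of the 5 fibroblast markers that passed in RQ was 2-fold different, beside 1.49% of all genes lower and 1.68% higher. The sum was 609.8 in RQ and 1501 in MI, against 632 in WT. The MI sum rests largely on Dcn (9.54) and Col1a2 (8.03), and the other markers of the list differed from WT in MI by 0.01 to 0.46. On the other probe set of Dcn the difference in MI was 0.09. The part of such cells in the MI signal of Gja1 was not tested. Pluripotency markers also differed, with 6 of 9 at least 2-fold higher in RQ, beside 1.68% of all genes. In MI, 3 of 9 were higher, beside 0.516%, and 1 was lower, beside 2.44%. Their sums were 29696 in RQ and 18730.2 in MI, against 19948 in WT. Of 8 trophoblast markers, 5 passed and 1, Tfap2c, was at least 2-fold higher in RQ (1.10), beside 1.68% of all genes. The sums of this list were 1381 in RQ and 1140.0 in MI, against 976 in WT.

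**Figure D4:**
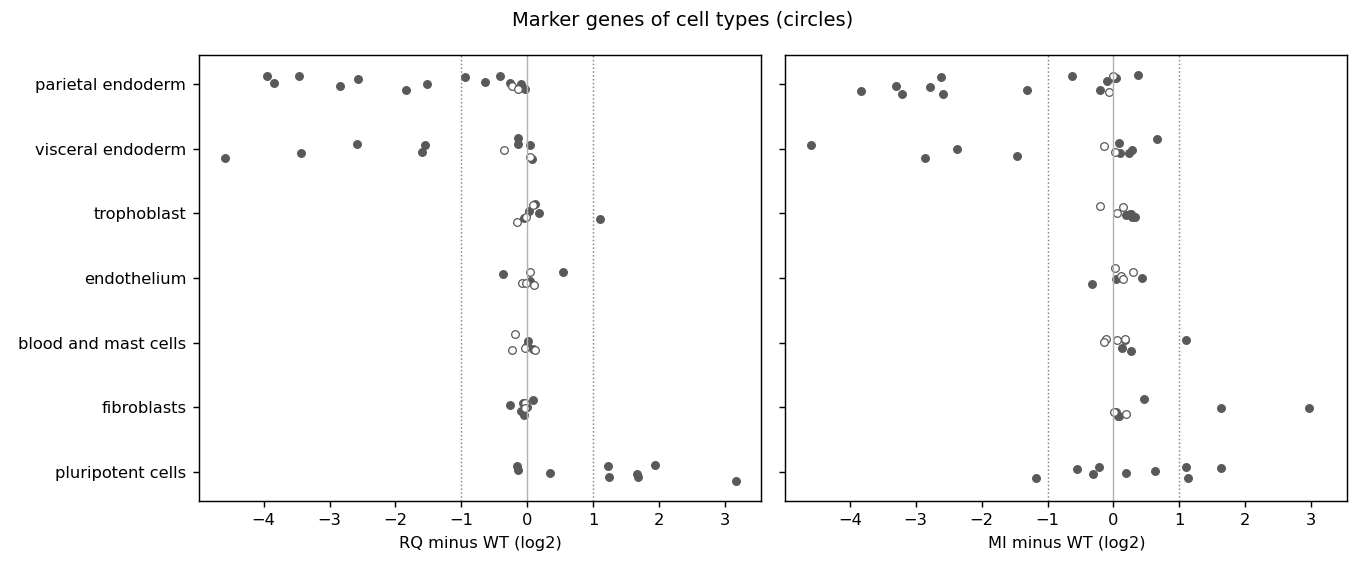
Differences from WT (horizontal axes, log2) of RQ on the left and MI on the right for the genes of 7 cell type marker lists (circles). Filled circles reach the level filter on an array, open ones do not, and dotted lines mark 2-fold. Endoderm markers reach furthest left in both, pluripotency markers furthest right in RQ, and 2 fibroblast markers pass the right dotted line in MI.

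The arrays as a whole had medians of 6.28 in RQ and 6.35 in MI, against 6.29 in WT. The MI array had the narrowest spread, with a standard deviation of 1.06, against 1.17 in RQ and 1.17 in WT. The part of this narrower spread in the MI differences was not tested. The 18 hybridization spike probe sets, which read RNA added in the laboratory, were lower than on the WT array by a median of -0.64 in RQ (-1.38 to -0.42) and -0.80 in MI (-1.48 to -0.36). The part of this spike shift in the differences of the members and of Tfpi, F2r and F3 was not tested. Mouse Brca1 probe sets may not bind the human transcript, so the genotype labels were not checked by them.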

How the data were processed

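Total RNA of embryoid bodies of day 7 (6 ug per sample) was hybridized to 1 Affymetrix mouse expression array per genotype, per the labels' protocols. The deposited values are log2 signals of 45101 probe sets. RMA, which subtracts background, makes arrays alike and summarises probes, and Partek appear in the submitters' processing notes with no version or order of steps. Scanner files, scan dates and detection calls were not analysed here, so absence could not be called. Signals near background are compressed, which can understate a difference.

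The platform annotation gave the gene names, and 34945 probe sets of 18193 genes with 1 symbol were kept. All 8 members matched the RefSeq gene table of GRCm38.p6 by symbol and Entrez identifier. A gene with several probe sets (9010 genes) was read on the one with the highest mean over the 3 arrays. Differences were counted at 2-fold among genes whose higher array reached the median of all probe sets (log2 6.31). No test was run, since there is 1 array per genotype. The calculations used Python 3.11.15, pandas 2.3.3 and statsmodels 0.14.6, and the counting was tested on simulated data. The members and lists were chosen with earlier results of these data known.

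Genes named in the text are the 8 members, the 3 genes nearest to each of Srgn, Car4, Spink1 and Gja1, and up to 3 genes of each pathway list with the largest difference above the filter. Named markers of cell types come from the marker lists and were named after their values were seen. Alternatives were centring on medians, quantile normalization again, a lowess correction (span 0.3, 3 iterations), no filter, a stricter filter (75th percentile, log2 6.92), means of probe sets, dropping probe sets with more than 1 possible transcript, and limits of 1.5-fold and 3-fold.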

Additional observations from a re-analysis of the deposited data

Results flagged for a closer look

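S100a10, the partner of annexin A2 in plasminogen binding, was the 1 gene among the members, their nearest genes and the pathway genes named by rule that was more than 1.5-fold from WT in opposite directions in the mutants. It read 7.39 in RQ and 9.08 in MI, against 8.49 in WT, with differences of -1.09 in RQ and 0.59 in MI, where the value in MI is barely past that limit. Its 3 probe sets ranged from -1.09 to -0.07 in RQ and from 0.08 to 0.59 in MI. Among the visceral endoderm markers, Rhox5 lay below WT in RQ (-1.54) and above it in MI (0.66). The difference between the mutants was not tested, since each genotype has 1 array.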

How the results depend on the processing

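The number of the 8 genes past 2-fold was 4 in RQ against WT and 4 in MI against WT under each alternative that kept the 2-fold limit, and likewise at 3-fold. At 1.5-fold it was 5 in RQ, through Plat, and 4 in MI. For RQ against MI the number was 1 (Gja1) under the alternatives run, except that it was 0 with means of probe sets, where Gja1 was at -0.85, and 0 at 3-fold. Of 120 differences of single members under an alternative, 116 stayed on the same side of 2-fold and within 1.5-fold of the reported value, and none of those past 2-fold changed sign. The 4 others were those of Gja1, which against WT was at -2.04 in RQ and -1.19 in MI with means of its 6 probe sets, and at -2.79 in RQ when probe sets with more than 1 possible transcript were dropped. Means of probe sets include 1415801_at, which never reached the filter. No paired analysis was possible because each genotype has 1 array and the labels carry no replicate numbers, and for the same reason no array could be left out. Signals near background limit what can be read of Thbd, Stra6 and Fst, of Spink1 and Car4 in both mutants, and of Gja1 in RQ.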
